A study of Mus musculus with 12 samples.

Results

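The 34 genes described here act in homologous recombination, in the Fanconi anaemia pathway or in the DNA damage checkpoint, and they were taken by symbol from the deposited gene count table, where all 34 were found among 31053 gene rows. The table covers hepatocytes of 12 C57Bl/6J mice, 3 months-old, fed standard chow, in 4 groups of 3 mice. The P16 mice had received AAV8-TBG-eGFP-P16, a hepatotropic viral vector that carries P16 under the TBG promoter, which is active in hepatocytes, and the GFP mice had received the control vector AAV8-TBG-eGFP. All 12 mice therefore carried a vector with eGFP. In each arm 3 mice were sampled 48 h after 70% partial hepatectomy, which was performed 1 week after the injection. The other 3 mice were sampled before the operation (0 h), and the labels do not give their time after the injection. No group had an operation without resection, so effects of resection, surgery and time cannot be told apart. Hepatocytes were isolated by collagenase perfusion and their poly(A) RNA was sequenced. Which sex was used is not stated in the labels. The transgene gives P16 only in cells that the vector reached, and the operated groups represent the liver lobes left after resection.

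Homologous recombination repairs DNA breaks and broken replication forks from the sister chromatid, so it is used mainly in the S and G2 phases of the cell cycle. Breaks are sensed and their ends are cut back to single strands, the BRCA1 and BRCA2 complexes prepare those strands for strand exchange, and the Fanconi pathway unhooks crosslinked strands after its core complex marks the FANCD2-FANCI pair with ubiquitin. The kinases ATM and ATR, with CHEK2 and CHEK1 downstream, hold the cell cycle while this goes on. Quiescent hepatocytes divide rarely, and after partial hepatectomy they enter the cell cycle nearly together. P16, the product of Cdkn2a, inhibits the kinases CDK4 and CDK6 that act upstream of the E2F factors.

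Reads in genes came to between 14617049 and 25409451 per library. Cdkn2a had 12.8, 26.2 and 18.8 CPM (counts of a gene per 1000000 reads in genes, after TMM scaling) in the P16 libraries at 48 h, against 0, 0.251 and 0 CPM in the GFP libraries at 48 h, and 49.2, 6.38 and 25.1 CPM in the P16 libraries at 0 h, against no read in any of the 3 GFP libraries at 0 h. Every P16 library thus lay above every GFP library of its time point. In the edgeR quasi-likelihood test Cdkn2a passed between the arms at 48 h (adjusted p = 0.0385) and did not pass at 0 h (adjusted p = 0.0914). The 8 hepatocyte markers were all detected in every library and summed to between 66692 and 99894 CPM. Macrophage and endothelial markers tended to be lower in P16 than in GFP mice at 0 h, and 1 library stood apart in them. Log2 fold changes of P16 over GFP at 0 h went both ways for stellate markers (8 of 11 negative) and for cholangiocyte markers (2 of 3 tested negative). All 15 macrophage markers and all 14 endothelial markers tested had negative log2 fold changes of P16 over GFP at 0 h (medians -1.68 and -0.64), with unadjusted p under 0.05 for 14 and 7 of them and an adjusted p under 0.05 for 1 and 0. The 15 macrophage markers summed to 32.2 to 49.2 CPM in P16 at 0 h, against 222 CPM in GFP replicate 2 and 44.4 and 105 CPM in the other GFP libraries at 0 h, so the arms overlapped. At 48 h these markers summed to 70.9 to 93.1 CPM in P16, against 45.9 to 107.6 CPM in GFP. The endothelial markers summed to 75.7 to 86.5 CPM in P16 at 0 h, against 99.2, 182 and 106.5 CPM in GFP at 0 h, with no overlap, and to 59.0 to 108.1 CPM in the 6 libraries at 48 h. The 16 lymphocyte and neutrophil markers summed to at most 7.71 CPM, with 5 to 13 of them at 0 reads in a library. The part of these cells in the results was not tested, and results that change without GFP replicate 2 at 0 h are given with and without it.

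The 34 genes were rare transcripts in hepatocytes at 0 h and all were detected in every library at 48 h. Their summed level was 199 to 223 CPM in P16 at 48 h, against 93.8 to 99.8 CPM in P16 at 0 h, and 187 to 227 CPM in GFP at 48 h, against 96.5 to 104 CPM in GFP at 0 h. The 0 h and 48 h libraries did not overlap in either arm, and the mean sum was 2.17-fold higher at 48 h in P16 and 2.07-fold higher in GFP mice. The size and order of these ratios depend on the TMM factors. The factors averaged 0.889 in P16 and 0.870 in GFP at 0 h, and 1.06 and 1.23 at 48 h. At 0 h, 28 to 32 of the 34 genes had at least 1 read in a library, and 14 genes averaged under 1 CPM in both arms. Those 14 averaged between 2.01 and 9.36 CPM at 48 h. In bulk hepatocytes, fewer cells with a transcript and less of it per cell cannot be told apart. Mki67, a marker of cycling cells, had 87.1, 79.3 and 111 CPM in P16 and 98.8, 88.0 and 78.9 CPM in GFP at 48 h, and at most 0.142 CPM in P16 and 0.524 CPM in GFP at 0 h.

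**Figure D1:**
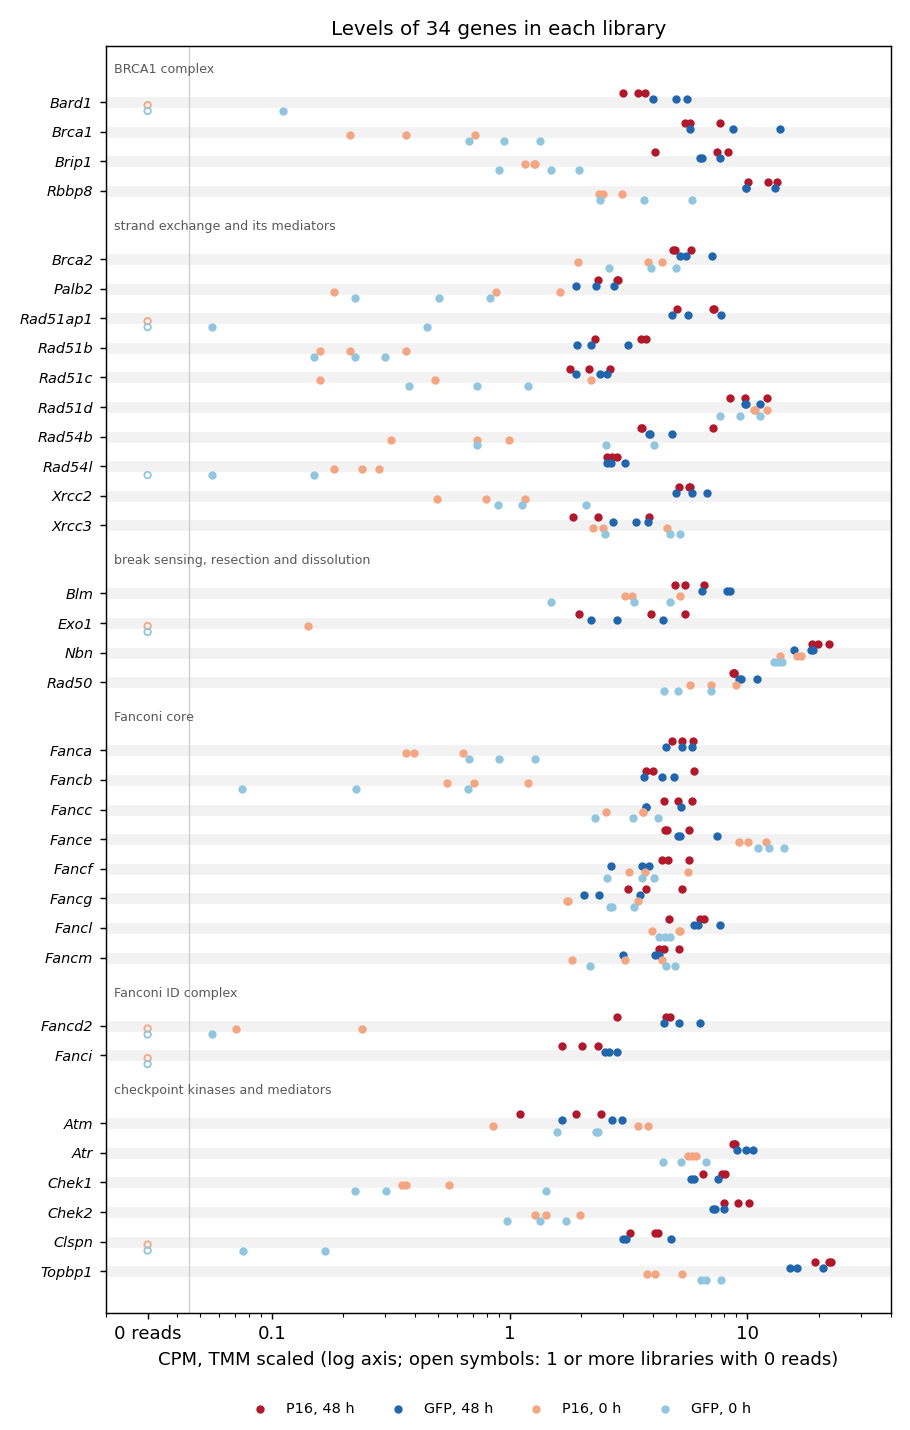
Level of each of the 34 genes in each of the 12 libraries, in CPM after TMM scaling on a log axis, grouped by role; within a gene the rows are, from top to bottom, P16 at 48 h, GFP at 48 h, P16 at 0 h and GFP at 0 h, and open symbols at the left mark groups with libraries at 0 reads. Dark points (48 h) lie right of pale points (0 h) for most genes of the BRCA1 complex, the Fanconi ID complex and the checkpoint, Fance lies the other way, and the arms lie close together at 48 h.

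After hepatectomy 20 of the 34 genes rose and 1 fell in P16 mice, and 22 rose and 1 fell in GFP mice (edgeR quasi-likelihood test, Benjamini-Hochberg adjustment over 12257 genes, adjusted p under 0.05). Of all genes tested, 19.6% rose and 19.0% fell in P16 mice, and 17.2% rose and 16.4% fell in GFP mice. In both arms 19 of the genes rose, and Fance fell in both. Rad54b was called in P16 mice alone and Blm, Rad50 and Nbn in GFP mice alone, and the difference between the arms' responses passed the test for none of these 4 genes. Without GFP replicate 2 at 0 h, 22 members were called in GFP mice in place of 23.

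Of the 34 genes, 12 passed the filter on low counts only through the 48 h libraries and so were tested only because their counts were higher there: Brca1, Bard1, Rad51ap1, Rad51b, Rad54l, Fanca, Fancb, Fancd2, Fanci, Exo1, Chek1 and Clspn. All 12 rose in both arms, which that filter fixed. Among the 22 genes that also passed a filter on the 0 h libraries alone, 8 rose in P16 mice (36.4%) and 10 rose in GFP mice (45.5%), against 18.0% and 15.9% of the 11223 genes that passed the same filter. The median log2 fold change of these 22 genes was 0.61 in P16 and 0.70 in GFP mice, against -0.039 in both arms over the 11223 genes. Over all 34 genes, the 12 with that fixed direction included, the medians were 2.23 and 1.51, also with the genes at 0 reads set to their lower bounds, against 0.0047 and -0.011 over all genes tested. The risers among the 22 were Palb2, Xrcc2, Rbbp8, Brip1, Chek2, Atr and Topbp1 in both arms, Rad54b in P16 mice, and Blm, Rad50 and Nbn in GFP mice, with folds of 1.5 to 6.90 in P16 and 1.32 to 5.44 in GFP mice. Across the 22 genes the log2 fold changes in the 2 arms were correlated (Pearson r = 0.811, Spearman rho = 0.730), a description over genes that are not independent replicates and that share the depth of their libraries.

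**Figure D2:**
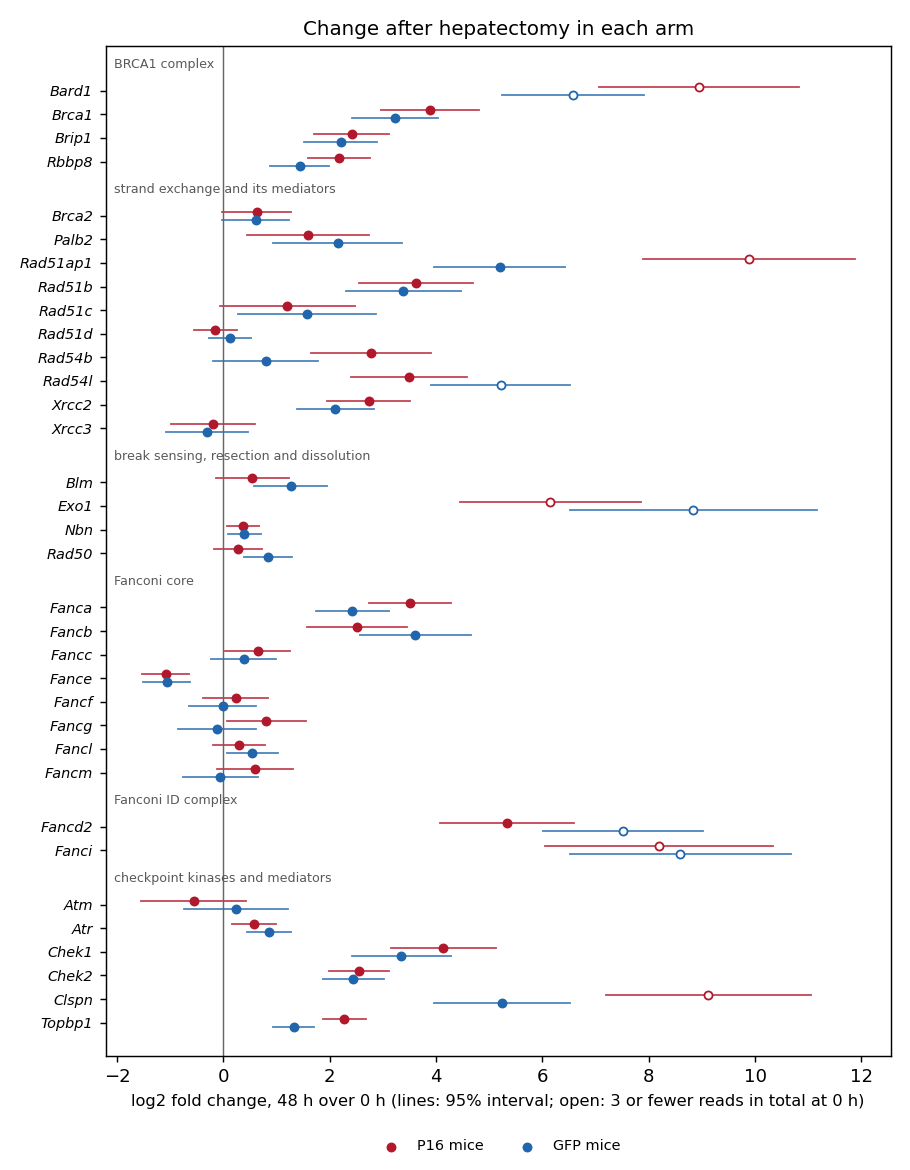
Log2 fold change at 48 h over 0 h for each gene in P16 mice (red, upper) and GFP mice (blue, lower), with 95% intervals; open points have 3 or fewer reads in total at 0 h, so that their size depends on the prior count. All 4 BRCA1 complex genes, both ID complex genes and 5 of 6 checkpoint genes lie right of 0 with their intervals in both arms, and Fance lies left of 0. For Brca1, Bard1, Fancd2, Fanci, Chek1 and Clspn the filter on low counts fixed that side.

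Promoter sequence was available from RefSeq (GRCm38.p6) for 26 of the 34 genes, as 29 windows of 300 bases that run from 250 bases before to 50 bases after an annotated start. The genes not matched were Rad51d, Rad50, Nbn, Xrcc2, Fancd2, Exo1, Rbbp8 and Rad54b. Letters known as E2F binding motifs (TTTGGCGC, TTTCCCGC, TTTCGCGC or TTTGCCGC, on either strand) were found in 8 of these 29 windows (27.6%), against 2.26% of all 32851 promoter windows in the same table. The matches belonged to Bard1, Fancg, Clspn, Chek2, Brca2, Topbp1 and Rad51c. CCAAT, on either strand, stood in 19 of the 29 windows (65.5%), against 37.4% of all promoters. TTTGAA, the core letters of the cell cycle homology region, stood in 2 of 29 (6.90%), against 17.9% of all. No match of one motif overlapped a match of another. The windows of genes that rose in both arms held the E2F letters in 4 of 17 cases, against 4 of 12 for the other members. The windows below are those of the 4 genes with E2F letters that rose in both arms, Brca1, which rose without them, and Fance, which fell. Not printed are the windows of Fancg, Brca2 and Rad51c, which hold E2F letters though these genes were called in neither arm. Capitals mark the E2F letters and CCAAT or its complement ATTGG, and each window is printed 5′ to 3′ on the gene's strand.
Bard1, chr1:71102923-71103222, minus strand: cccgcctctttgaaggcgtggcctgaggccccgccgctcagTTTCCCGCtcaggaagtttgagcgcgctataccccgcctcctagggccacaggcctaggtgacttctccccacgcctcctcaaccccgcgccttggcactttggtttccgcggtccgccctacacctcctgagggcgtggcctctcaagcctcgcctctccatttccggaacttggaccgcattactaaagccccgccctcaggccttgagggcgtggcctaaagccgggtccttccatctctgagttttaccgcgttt
Clspn, chr4:126556730-126557029, plus strand: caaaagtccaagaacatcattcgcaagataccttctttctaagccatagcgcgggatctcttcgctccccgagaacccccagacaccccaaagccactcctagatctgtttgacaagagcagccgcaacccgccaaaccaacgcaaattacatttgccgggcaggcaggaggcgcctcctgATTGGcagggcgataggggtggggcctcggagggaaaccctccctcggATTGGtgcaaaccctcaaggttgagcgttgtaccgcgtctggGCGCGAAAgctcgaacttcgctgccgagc
Chek2, chr5:110839733-110840032, plus strand: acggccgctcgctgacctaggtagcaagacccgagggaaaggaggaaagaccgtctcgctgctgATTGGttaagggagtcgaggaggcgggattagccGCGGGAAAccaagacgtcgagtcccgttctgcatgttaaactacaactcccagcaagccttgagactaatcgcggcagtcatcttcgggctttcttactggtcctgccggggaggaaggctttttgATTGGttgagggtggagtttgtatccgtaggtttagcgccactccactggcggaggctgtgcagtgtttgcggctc
Topbp1, chr9:103305077-103305376, plus strand: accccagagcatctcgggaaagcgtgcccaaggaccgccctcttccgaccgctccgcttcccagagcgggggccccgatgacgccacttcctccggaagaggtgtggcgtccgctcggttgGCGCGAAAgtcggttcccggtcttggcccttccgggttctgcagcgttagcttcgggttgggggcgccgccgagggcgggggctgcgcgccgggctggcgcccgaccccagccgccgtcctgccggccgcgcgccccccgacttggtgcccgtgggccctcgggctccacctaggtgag
Brca1, chr11:101551906-101552205, minus strand: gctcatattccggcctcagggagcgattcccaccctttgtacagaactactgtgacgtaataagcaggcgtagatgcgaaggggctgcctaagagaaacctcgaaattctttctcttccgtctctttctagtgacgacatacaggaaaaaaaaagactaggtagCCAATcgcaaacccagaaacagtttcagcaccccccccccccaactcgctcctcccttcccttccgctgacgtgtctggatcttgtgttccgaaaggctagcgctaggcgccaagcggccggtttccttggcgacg
Fance, chr17:28313280-28313579, plus strand: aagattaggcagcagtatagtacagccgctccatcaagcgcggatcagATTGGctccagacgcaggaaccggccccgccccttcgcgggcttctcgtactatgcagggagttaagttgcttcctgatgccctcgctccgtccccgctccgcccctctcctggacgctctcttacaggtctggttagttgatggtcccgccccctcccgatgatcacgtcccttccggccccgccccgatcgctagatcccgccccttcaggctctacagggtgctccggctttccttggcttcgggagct
In the Clspn window the E2F letters GCGCGAAA lie within the transcribed 50 bases and follow 2 copies of ATTGG, and in Chek2 a copy of ATTGG stands on either side of GCGGGAAA. The Brca1 and Fance windows each hold 1 CCAAT in 1 of the 2 orientations and none of the 4 E2F words. A match is a description of letters, and no binding was measured.

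The BRCA1 complex genes all rose in both arms, though for Brca1 and Bard1 the filter on low counts fixed that direction. Brca1 (chr11:101488764-101551955, mm10), the tumour suppressor that promotes end resection, had 7.71, 5.49 and 5.74 CPM in P16 at 48 h, against 0.715, 0.365 and 0.212 CPM in P16 at 0 h. It had 8.71, 5.72 and 13.7 CPM in GFP at 48 h, against 0.678, 0.949 and 1.35 CPM in GFP at 0 h. Brca1 rose 14.8-fold in P16 (log2 3.89 ± 0.44 SE, adjusted p = 1.40e-06) and 9.41-fold in GFP mice (3.23 ± 0.38, adjusted p = 3.28e-06), with no overlap between times. Bard1, the obligate partner of BRCA1 in its ubiquitin ligase, had 3.00, 3.70 and 3.45 CPM in P16 at 48 h, against no read in any P16 library at 0 h, and was at least 16.04-fold higher when each 0 h library is given a floor of 3 reads (adjusted p = 6.98e-07). In GFP mice it had 5.03, 4.02 and 5.55 CPM at 48 h, against 2 reads over the 3 libraries at 0 h, a ratio of 109 (95% counting interval 30.0 to 906; adjusted p = 5.90e-07). Floors and counting intervals cover counting error only.

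The other BRCA1 partners were less scarce at 0 h. Brip1, the helicase also known as FANCJ, averaged 6.61 ± 2.21 CPM in P16 at 48 h, against 1.23 ± 0.0677 CPM at 0 h, and 6.82 ± 0.753 CPM in GFP at 48 h, against 1.45 ± 0.526 CPM at 0 h (SD, n = 3 each). Its folds were 5.34 in P16 and 4.62 in GFP mice. Rbbp8, which encodes the resection factor CtIP, averaged 11.9 ± 1.68 CPM in P16 at 48 h, against 2.61 ± 0.321 CPM at 0 h, and 10.9 ± 1.85 CPM in GFP at 48 h, against 3.98 ± 1.75 CPM at 0 h. Rbbp8 rose 4.51-fold and 2.70-fold in these arms.

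Both genes of the Fanconi ID complex, the substrate pair that the core complex marks on chromatin, rose in both arms. Both passed the filter on low counts only through the 48 h libraries, which fixed that direction. Fancd2 had 4.55, 2.84 and 4.71 CPM in P16 at 48 h, against 0.238, 0 and 0.0708 CPM at 0 h, a 40.2-fold rise (adjusted p = 1.40e-06). In GFP mice Fancd2 had 6.34, 5.17 and 4.47 CPM at 48 h, against 1 read over the 3 libraries at 0 h, a ratio of 244 with a counting interval of 43.5 to 9649. Fanci had 2.35, 1.66 and 2.01 CPM in P16 and 2.82, 2.51 and 2.61 CPM in GFP at 48 h, against 0 reads in all 6 libraries at 0 h. It was at least 9.51-fold higher in P16 (adjusted p = 1.57e-05) and at least 12.8-fold higher in GFP mice (adjusted p = 8.81e-06). Fanci shares 16% of its exon bases with the opposite-strand gene Polg, and since the strand setting of the counting is not given, its values are uncertain to that extent.

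The Fanconi core complex is the ubiquitin ligase that acts on the ID pair. Of its 8 genes 2 rose, 1 fell and 5 did not pass the test, the same genes in each arm. The share that rose, 25%, was near that of all genes tested, 19.6% in P16 and 17.2% in GFP mice. The 2 that rose, Fanca and Fancb, passed the filter on low counts only through the 48 h libraries, which fixed that direction. Of the core genes that passed it at 0 h, Fance alone was called, as lower. Fanca, a subunit of the core, had 4.8, 5.30 and 5.93 CPM in P16 at 48 h, against 0.397, 0.365 and 0.637 CPM at 0 h, and 5.29, 4.57 and 5.87 CPM in GFP at 48 h, against 0.678, 1.28 and 0.898 CPM at 0 h. It rose 11.4-fold (log2 3.50 ± 0.37, adjusted p = 5.81e-07) and 5.38-fold (2.43 ± 0.33, adjusted p = 1.54e-05), and 10.5% of its exon bases overlap Zfp276 on the other strand. Fancb, part of the catalytic module with Fancl, had 4.0, 3.76 and 5.97 CPM in P16 at 48 h, against 1.19, 0.547 and 0.708 CPM at 0 h, and 4.39, 3.66 and 4.89 CPM in GFP at 48 h, against 0.226, 0.670 and 0.0748 CPM at 0 h. Its folds were 5.68 (adjusted p = 0.000236) and 12.2 (adjusted p = 1.77e-05).

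Fance (chr17:28313519-28326572), the subunit that binds FANCD2, was the single gene of the 34 that fell. It had 4.50, 5.67 and 4.57 CPM in P16 at 48 h, against 9.21, 10.03 and 12.0 CPM at 0 h, and 7.46, 5.12 and 5.22 CPM in GFP at 48 h, against 12.3, 11.1 and 14.2 CPM at 0 h. The times did not overlap in either arm, and the 48 h level was 0.471-fold (log2 -1.09 ± 0.21, adjusted p = 0.000550) and 0.477-fold (-1.07 ± 0.21, adjusted p = 0.000580) that at 0 h. Fancc, Fancf, Fancg, Fancl and Fancm had log2 fold changes of 0.23 to 0.81 in P16 and -0.12 to 0.55 in GFP mice, with adjusted p of 0.0764 or more. Fancl, the catalytic subunit, averaged 5.86 ± 1.03 CPM in P16 at 48 h, against 4.79 ± 0.710 CPM at 0 h, and 6.60 ± 0.910 CPM in GFP at 48 h, against 4.51 ± 0.240 CPM at 0 h. Fancm, the DNA translocase that anchors the core, averaged 4.63 ± 0.489 and 3.08 ± 1.27 CPM in P16 at 48 h and 0 h, and 3.77 ± 0.666 and 3.91 ± 1.5 CPM in GFP. The other 3 are Fancc, with means of 3.26 to 5.13 CPM over the 4 groups, Fancf, with 3.37 to 4.89 CPM, and Fancg, with 2.33 to 4.08 CPM. Fancf shares 15.0% of its exon bases with Gas2 and Fancl 13.7% with Vrk2 on the opposite strands.

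Among the 10 genes of strand exchange and its mediators, 6 rose in P16 and 5 in GFP mice, against 19.6% and 17.2% of all genes tested. Of these risers, Rad51ap1, Rad51b and Rad54l passed the filter on low counts only through the 48 h libraries, which fixed their direction. Rad51ap1, which stimulates strand invasion, had 5.05, 7.27 and 7.14 CPM in P16 at 48 h, against 0 reads in the 3 libraries at 0 h, at least 30.7-fold higher (adjusted p = 4.96e-07). In GFP mice it had 5.61, 4.82 and 7.78 CPM at 48 h, against 0, 0.0558 and 0.449 CPM at 0 h, a 36.6-fold rise (adjusted p = 3.59e-06). Rad54l, a translocase that acts in strand exchange, had 2.70, 2.84 and 2.57 CPM in P16 at 48 h, against 0.238, 0.182 and 0.283 CPM at 0 h, an 11.3-fold rise (adjusted p = 3.61e-05). Its GFP levels were 2.66, 3.06 and 2.56 CPM at 48 h, against 3 reads over the libraries at 0 h, a ratio of 40.7 (counting interval 13.7 to 199). Rad54l overlaps Lrrc41 on the other strand over 15.4% of its exon bases.

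Among the subunits of the complexes that assist strand exchange, Rad51b and Xrcc2 rose and Rad51c, Rad51d and Xrcc3 did not pass the test in either arm. Rad51b averaged 3.20 ± 0.80 CPM in P16 at 48 h, against 0.245 ± 0.107 CPM at 0 h, and 2.42 ± 0.652 CPM in GFP at 48 h, against 0.224 ± 0.0743 CPM at 0 h, with folds of 12.4 and 10.5. Xrcc2, its partner in the BCDX2 complex, averaged 5.52 ± 0.338 CPM in P16 at 48 h, against 0.815 ± 0.330 CPM at 0 h, and 5.86 ± 0.887 CPM in GFP at 48 h, against 1.37 ± 0.637 CPM at 0 h, with folds of 6.65 and 4.32. Rad51d, another subunit of that complex, was already well detected at 0 h, with 10.8, 12.1 and 10.7 CPM in P16 and 11.3, 7.70 and 9.35 CPM in GFP, and had 12.1, 8.44 and 9.80 CPM in P16 and 9.87, 9.79 and 11.3 CPM in GFP at 48 h. Its log2 fold change was -0.15 (95% interval -0.55 to 0.25) in P16 and 0.13 (-0.27 to 0.53) in GFP mice, so a doubling lies outside both intervals. Rad51c averaged 2.20 ± 0.434 CPM in P16 at 48 h, against 0.947 ± 1.09 CPM at 0 h, and 2.29 ± 0.341 CPM in GFP at 48 h, against 0.766 ± 0.412 CPM at 0 h, with adjusted p of 0.128 and 0.0563. Xrcc3 averaged 2.69 ± 1.05 and 3.11 ± 1.30 CPM in P16 at 48 h and 0 h, and 3.31 ± 0.557 and 4.14 ± 1.43 CPM in GFP.

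Palb2, which links BRCA1 to BRCA2, passed the test in both arms, and Brca2, a mediator of strand exchange, passed it in neither. Whether these genes differ in their response was not tested. Palb2 had 2.35, 2.84 and 2.85 CPM in P16 at 48 h, against 0.874, 0.182 and 1.63 CPM at 0 h, and 2.31, 1.91 and 2.75 CPM in GFP at 48 h, against 0.828, 0.502 and 0.224 CPM at 0 h. Palb2 rose 3.02-fold (adjusted p = 0.0280) and 4.44-fold (adjusted p = 0.00783), and its call in P16 mice was lost when P16 replicate 1 or 2 at 0 h or P16 replicate 2 or 3 at 48 h was left out (adjusted p up to 0.0959 over 19 alternative settings). Brca2 averaged 5.20 ± 0.516 CPM in P16 at 48 h, against 3.38 ± 1.27 CPM at 0 h, and 5.94 ± 1.00 CPM in GFP at 48 h, against 3.85 ± 1.2 CPM at 0 h. Brca2 did not pass the test, though its times did not overlap in either arm. Its log2 fold changes were 0.63 (95% interval -0.02 to 1.28) in P16 and 0.61 (-0.02 to 1.24) in GFP mice.

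Rad54b (chr4:11558922-11615805), a relative of Rad54l, had 3.60, 3.57 and 7.14 CPM in P16 at 48 h, against 0.318, 0.730 and 0.991 CPM at 0 h, and rose 6.90-fold (log2 2.79 ± 0.54, adjusted p = 0.000554). In GFP mice it had 3.88, 3.86 and 4.8 CPM at 48 h, against 4.07, 0.726 and 2.54 CPM at 0 h. Those GFP times overlapped, and the log2 fold change of 0.80 ± 0.47 did not pass (adjusted p = 0.208). The 2 responses differed by 1.99 ± 0.71 on the log2 scale with an adjusted p of 0.269. Rad54b shares 35.8% of its exon bases with Fsbp on the same strand, so its counts may lack reads set aside as ambiguous.

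Of the 4 genes of break sensing, resection and dissolution, 1 rose in P16 and all 4 rose in GFP mice. Of all genes tested, 19.6% rose in P16 and 17.2% in GFP mice. The difference between the arms' responses passed the test for none of the 4. The riser in both arms, Exo1, passed the filter on low counts only through the 48 h libraries, which fixed its direction. Exo1, the exonuclease of long-range resection, had 1.95, 3.94 and 5.46 CPM in P16 at 48 h, against 2 reads over the 3 libraries at 0 h, a ratio of 82.4 (counting interval 22.5 to 684; adjusted p = 1.45e-05). In GFP mice it had 2.82, 2.21 and 4.43 CPM at 48 h, against 0 reads at 0 h, at least 15.3-fold higher (adjusted p = 1.07e-05). Blm, the helicase that dissolves joint molecules, had 4.95, 6.59 and 5.46 CPM in P16 at 48 h, against 3.26, 5.23 and 3.04 CPM at 0 h, and 8.46, 6.42 and 8.20 CPM in GFP at 48 h, against 4.74, 3.35 and 1.5 CPM at 0 h. The times overlapped in P16 mice (1.46-fold, adjusted p = 0.193) and not in GFP mice (2.41-fold, adjusted p = 0.00546).

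Rad50 and Nbn belong to the MRN complex, which senses breaks and activates ATM. Rad50 had 8.76, 8.69 and 8.77 CPM in P16 at 48 h, against 5.72, 8.94 and 7.01 CPM at 0 h, and 9.26, 10.9 and 9.41 CPM in GFP at 48 h, against 7.0, 4.47 and 5.09 CPM at 0 h. Its folds were 1.21 in P16 (adjusted p = 0.344) and 1.79 in GFP mice (adjusted p = 0.00577). Nbn had 18.6, 22.1 and 19.9 CPM in P16 at 48 h, against 13.7, 16.2 and 16.8 CPM at 0 h, and 18.8, 15.7 and 18.5 CPM in GFP at 48 h, against 13, 14.0 and 13.4 CPM at 0 h. The folds of Nbn were nearly equal, 1.29 in P16 (adjusted p = 0.0541) and 1.32 in GFP mice (adjusted p = 0.0449), on either side of the threshold, and the GFP call was lost under 10 of 19 alternative settings (adjusted p up to 0.142). The difference between the arms' responses had an adjusted p of 0.576 for Blm, 0.484 for Rad50 and 0.977 for Nbn.

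Against 19.6% of all genes tested in P16 and 17.2% in GFP mice, 5 of the 6 checkpoint genes rose in both arms. Of these, Chek1 and Clspn passed the filter on low counts only through the 48 h libraries, which fixed their direction. Chek1, the effector kinase of ATR, had 7.81, 6.53 and 8.07 CPM in P16 at 48 h, against 0.556, 0.365 and 0.354 CPM at 0 h, and 5.80, 5.97 and 7.5 CPM in GFP at 48 h, against 0.301, 0.223 and 1.42 CPM at 0 h. It rose 17.6-fold (log2 4.13 ± 0.47, adjusted p = 1.56e-06) and 10.2-fold (3.35 ± 0.44, adjusted p = 1.13e-05). Clspn, the adaptor that brings CHEK1 to ATR, had 3.20, 4.19 and 4.11 CPM in P16 at 48 h, against 0 reads in the 3 libraries at 0 h, at least 18.2-fold higher (adjusted p = 8.08e-07). In GFP mice Clspn had 3.08, 3.01 and 4.75 CPM at 48 h, against 0.0753, 0.167 and 0 CPM at 0 h, a 37.9-fold rise (adjusted p = 4.74e-06).

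Chek2, the effector kinase of ATM, had 8.01, 9.12 and 10.2 CPM in P16 at 48 h, against 1.99, 1.28 and 1.42 CPM at 0 h, and 7.18, 7.33 and 7.97 CPM in GFP at 48 h, against 0.979, 1.73 and 1.35 CPM at 0 h. It rose 5.87-fold in P16 (log2 2.55 ± 0.27, adjusted p = 7.14e-07) and 5.44-fold in GFP mice (2.44 ± 0.27, adjusted p = 1.58e-06). Atr, the kinase that activates CHEK1, averaged 8.80 ± 0.0666 CPM in P16 at 48 h, against 5.87 ± 0.221 CPM at 0 h, and 9.82 ± 0.785 CPM in GFP at 48 h, against 5.45 ± 1.16 CPM at 0 h. Atr rose 1.5-fold (adjusted p = 0.0259) and 1.80-fold (adjusted p = 0.00263), and its call in P16 mice was lost under 6 of 19 alternative settings, namely without the low-count filter, without P16 replicate 1 or 3 at 0 h and without any 1 of the 3 P16 libraries at 48 h (adjusted p up to 0.0653). Atm, the kinase activated by MRN, did not pass the test, with 1.90, 1.11 and 2.43 CPM in P16 at 48 h, against 3.81, 0.851 and 3.47 CPM at 0 h, and 2.98, 1.66 and 2.70 CPM in GFP at 48 h, against 1.58, 2.34 and 2.32 CPM at 0 h. Its log2 fold changes were -0.55 (95% interval -1.54 to 0.43) and 0.23 (-0.74 to 1.21), so that a halving in P16 and a doubling in GFP mice lie within the intervals.

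Topbp1 (chr9:103305215-103350428), the activator of ATR, had 22.0, 19.2 and 22.5 CPM in P16 at 48 h, against 5.32, 3.77 and 4.11 CPM at 0 h, and 16.2, 15.2 and 20.8 CPM in GFP at 48 h, against 7.76, 6.70 and 6.36 CPM at 0 h. It rose 4.85-fold in P16 (log2 2.28 ± 0.19, adjusted p = 3.92e-08) and 2.5-fold in GFP mice (1.32 ± 0.18, adjusted p = 1.81e-05). All P16 libraries lay below all GFP libraries at 0 h, and the arms overlapped at 48 h. The difference between the responses was 0.95 ± 0.26 on the log2 scale, the lowest p of the 34 genes, and did not pass the test (adjusted p = 0.143). It passed with DESeq2 in place of edgeR (adjusted p = 0.0428), and over all 18 alternative settings its adjusted p ran from 0.0428 to 0.315.

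Per exon length, Nbn had the highest level of the 34 genes in each group, with 7.97 CPM per kilobase in P16 at 48 h, 6.99 in GFP at 48 h, 6.15 in P16 at 0 h and 5.30 in GFP at 0 h. At 48 h, Chek2 (3.03), Fancf (2.89) and Rad51d (2.72) followed in P16 and Rad51d (2.78), Chek2 (2.5) and Fancf (1.99) in GFP libraries, in CPM per kilobase. At 0 h the genes after Nbn were Fance (3.26), Rad51d (3.02) and Fancf (2.47) in P16 and Fance (3.93), Rad51d (2.54) and Fancf (2.02) in GFP libraries. Atm had the lowest level per kilobase at 48 h, 0.175 in P16 and 0.237 in GFP.

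Between the arms no gene of the 34 passed the test at 48 h, where 2.28% of all genes tested did, and none passed at 0 h, where 0.220% did. At 48 h no gene of the 34 had an unadjusted p under 0.05, where 17.5% of all genes tested did. The log2 fold changes of P16 over GFP ran from -0.57 to 0.61. The 95% interval lay wholly within a doubling in either direction for 20 of the 34 genes at 48 h, among them Chek1, Chek2, Atr, Topbp1, Fanca, Brca2 and Nbn, and reached past it on at least 1 side for the other 14, among them Brca1, Bard1, Fancd2 and Exo1. The 4 genes with the lowest p at 48 h were Fancf (0.54 ± 0.29, adjusted p = 0.348), Fancg (0.61 ± 0.34, adjusted p = 0.375), Brca1 (-0.57 ± 0.32, adjusted p = 0.384) and Topbp1 (0.29 ± 0.17, adjusted p = 0.412). Fancf had 4.35, 4.62 and 5.69 CPM in P16, against 2.66, 3.86 and 3.59 CPM in GFP. At 48 h Fancf, Chek2 and Fancm were higher in every P16 library than in every GFP library, where 14.8% of all genes were, and Bard1, Fanci, Atr and Rad50 were lower in every one, where 13.4% of all genes were.

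At 0 h, 8 of the 34 genes (23.5%) had an unadjusted p under 0.05, against 13.5% of all genes tested. Of the 8, 7 were lower in P16 and 1, Fancb, was higher. Of these 8, 5 passed the low-count filter only through the 48 h libraries, and among the 22 genes that passed it at 0 h the share was 3 of 22 (13.6%), against 13.2% of all genes that did. Mki67 was also lower in every P16 library than in every GFP library at 0 h (0.0608 to 0.142 against 0.377 to 0.524 CPM). Its log2 fold change was -2.19 ± 0.54 (adjusted p = 0.116), from 1 to 8 reads per library. The log2 fold changes of the macrophage and endothelial markers at 0 h were all negative too. The part of cycling cells and of these other cells in these values was not tested. The 4 with the lowest p were Topbp1 (-0.66 ± 0.20 on the log2 scale, adjusted p = 0.176), Rad54b (-1.79 ± 0.55, adjusted p = 0.189), Rad51ap1 (adjusted p = 0.271) and Fanca (-1.05 ± 0.41, adjusted p = 0.278). Rad51ap1 had 0 reads in the P16 libraries from 0 h, against 0, 0.0558 and 0.449 CPM in GFP, so that no fold is given. Without GFP replicate 2, the library with the high macrophage markers, Rad54b passed as lower in P16, and it also passed with DESeq2; over 19 alternative settings its adjusted p ran from 0.0298 to 0.473. Topbp1 and Fanca were lower in every P16 library than in every GFP library at 0 h, where 6.84% of all genes were, and Rad54l, with 3 reads in total in GFP, was higher in every one, where 7.60% of all genes were.

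The test of whether the arms responded differently to hepatectomy passed for none of the 34 genes and for 0.0979% of all genes tested. An unadjusted p under 0.05 was found for 5 genes (14.7%), namely Topbp1, Rad54b, Rad51ap1, Clspn and Fanca, against 11.8% of all genes tested, and 3 of the 5 (Rad51ap1, Clspn and Fanca) passed the filter only through the 48 h libraries. All 15 macrophage and all 14 endothelial markers tested had a positive difference in response, with medians of 1.61 and 0.73 on the log2 scale. Mki67 had a difference in response of 2.25 ± 0.56 (adjusted p = 0.103). The part of cycling cells and of these other cells in the differences in response was not tested. For 27 of the 34 genes the 95% interval of that difference reached past a doubling on at least 1 side. The gene with the lowest p, Topbp1, had an interval of 0.40 to 1.5 on the log2 scale.

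**Figure D3:**
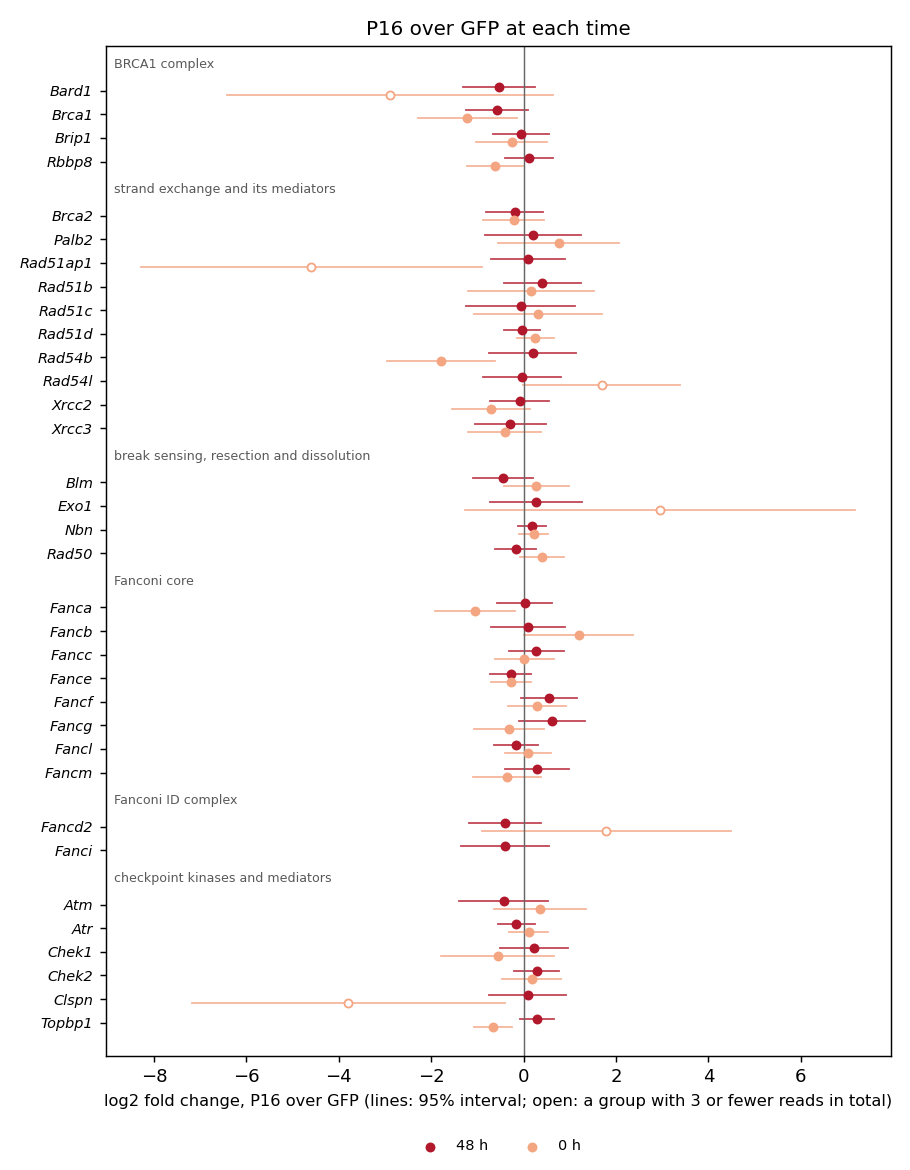
Log2 fold change of P16 over GFP for each gene at 48 h (dark, upper) and at 0 h (pale, lower), with 95% intervals; open points have a group with 3 or fewer reads in total, and Fanci at 0 h, with 0 reads in both arms, has no point. At 48 h the points lie between -0.57 and 0.61 and every interval crosses 0. At 0 h the intervals of Topbp1, Rad54b, Fanca, Brca1, Rbbp8, Rad51ap1 and Clspn lie left of 0, and that of Fancb lies right of it.

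Other genes of the same processes, from lists chosen with earlier results of these data known, were tested in the same fit. Of 61 further recombination and Fanconi genes tested, 28 rose and 1 fell in P16 mice, and 24 rose and 1 fell in GFP mice. Rmi2, Fignl1 and Eme1 had the largest changes in both arms. These too passed the filter only through the 48 h libraries, which fixed their direction. At 0 h Rmi2 had 0 CPM in all 6 libraries, and Eme1 averaged 0.0265 CPM in P16 and 0.0372 CPM in GFP. The list was not split by that filter, so its counts include such genes. Fignl1, an ATPase that acts in recombination, averaged 9.69 ± 1.34 CPM in P16 and 8.76 ± 1.21 CPM in GFP at 48 h, against 0.0529 ± 0.0917 and 0.119 ± 0.0922 CPM at 0 h in the same arms. Recql5, a helicase that restrains recombination, fell in both arms, to 0.607-fold in P16 and 0.692-fold in GFP mice.

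Of 22 further checkpoint genes, 12 rose in P16 and 15 rose in GFP mice and none fell. The checkpoint and replication lists were not split by the filter on low counts. At least Cdc25c, with means near 0 CPM at 0 h, passed it only through the 48 h libraries, which fixed its direction. Others may have done so too, and the counts include them. Cdc25c, the phosphatase that opens entry to mitosis, averaged 10.05 ± 2.61 CPM in P16 and 9.83 ± 0.534 CPM in GFP at 48 h, against 0 and 0.0809 ± 0.0839 CPM at 0 h. Pkmyt1, a kinase that opposes it, rose 36.5-fold in P16 and 34.9-fold in GFP mice, and Cdc25b rose 21.4-fold and 35.3-fold. H2afx, which encodes the histone variant marked at breaks, rose 7.27-fold in P16 and 4.58-fold in GFP mice, and Wee1, another kinase that holds back mitosis, rose 5.45-fold and 11-fold. Of 23 replication genes, 22 rose and Mcm10 fell in both arms, among them Mcm5, a subunit of the replicative helicase, with folds of 38.9 and 46.2.

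End joining, excision repair and mismatch repair genes were tested in the same fit. Over all genes tested the shares were 19.6% higher and 19.0% lower in P16 mice, and 17.2% and 16.4% in GFP mice. Of 10 end joining genes, Xrcc6 rose in P16 mice and Paxx fell in GFP mice, and no other gene passed the test. Of 30 excision repair genes 5 rose (16.7%) and 4 fell (13.3%) in P16 mice, and 8 rose (26.7%) and 1 fell (3.33%) in GFP mice. Neil3 had the largest change in both. Of 7 mismatch repair genes 2 rose and 2 fell in P16 mice (28.6% each), and 1 rose and 1 fell in GFP mice (14.3% each). No gene of these 6 lists passed the test between the arms at 48 h or at 0 h.

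**Figure D4:**
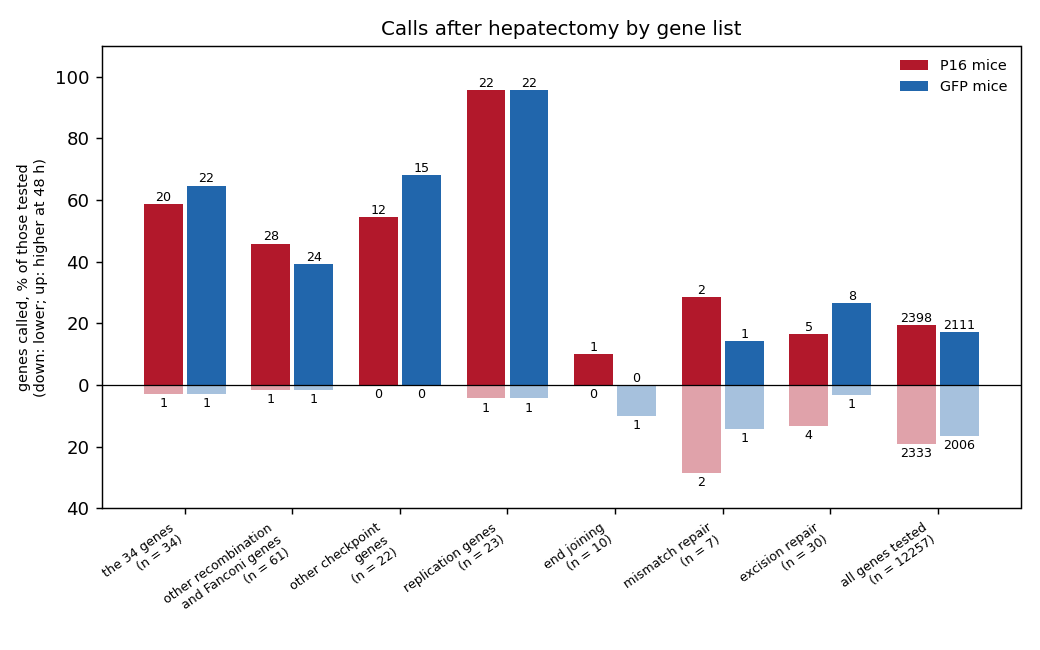
Percent of the tested genes of each list that were higher (up, full colour) or lower (down, pale) at 48 h than at 0 h, in P16 mice (red, left) and GFP mice (blue, right), with the number of genes on each bar. The 34 genes, the other recombination, checkpoint and replication lists reach above the bar of all genes tested in both arms, and the end joining list does not. Mismatch repair does so in P16 mice alone and excision repair in GFP mice alone. Of the 34 genes, 12 passed the low-count filter only through the 48 h libraries, which fixed their direction. Among the other 22, 36.4% and 45.5% were higher, against 18.0% and 15.9% of all genes passing at 0 h. The other lists were not split by that filter, and their bars include genes whose direction it fixed, such as Rmi2 and Cdc25c.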

How the data were processed

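Per the labels' protocols, total RNA of freshly isolated hepatocytes was enriched for poly(A) RNA and sequenced. The authors deposited raw counts, as whole reads assigned to each gene in each library. Per the submitters' processing notes, HTSeq, STAR 2.5.0c, Trim Galore, Picard and SAMtools were used with build mm10; settings, strand and annotation release are not in the labels. Rows without a gene were left out of library sizes (no feature 3.62 to 9.80% and ambiguous 4.87 to 8.80% of a library). Gene positions and exon lengths come from GENCODE vM21. Exons of 15 of the 34 genes overlap another gene, and these counts are uncertain to that extent.

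In R 4.3.3, edgeR 4.0.16 was used with TMM scaling, filterByExpr (12257 genes kept), a model of 4 group means over 12 libraries and robust quasi-likelihood F tests. The Benjamini-Hochberg adjustment covered every gene kept, with a threshold of 0.05. SE is the absolute log2 fold change over the square root of F. CPM uses library size times TMM factor. The contrasts were 48 h against 0 h in each arm, P16 against GFP at each time, and their interaction. The pipeline was tested on simulated data. Alternatives were DESeq2 1.42.0, limma 3.58.1 (voom), other size factors, no filter, only the groups compared, a replicate block and libraries left out. The labels give no batch, and replicates are separate mice (correlation of log CPM 0.961 to 0.985; no pair agreed within counting noise). Members and gene lists were chosen with earlier results of these data known. Members past the threshold are named with their folds, and otherwise the 4 with the lowest p; of other lists, up to 4 genes. The values of 1 gene of those lists are not reported here, though its list counts include it.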

Additional observations from a re-analysis of the deposited data

How the results depend on the processing

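Among the calls after hepatectomy and the 4 genes of lowest p in each of the other contrasts, no direction reversed under the alternatives run, 19 for most genes and 18 for the interaction and for Rad51ap1 and Fanca at 0 h; directions of other genes were not recomputed. Of the calls after hepatectomy, 19 of 21 in P16 and 22 of 23 in GFP mice were kept under all of them; Palb2 and Atr in P16 and Nbn in GFP mice were lost under 4, 6 and 10. With DESeq2, 1 gene of the 34 (Rad54b) was called between the arms at 0 h and 1 (Topbp1) in the interaction, against 0 each with edgeR. Rad54b was also the 1 gene called at 0 h without both GFP replicate 2 at 0 h and P16 replicate 2 at 48 h. With each library left out in turn, the genes called ran from 0 to 1 at 0 h (1 without GFP replicate 2), 0 to 0 at 48 h, 19 to 22 after hepatectomy in P16, 22 to 24 in GFP mice, and 0 to 0 in the interaction. The causes were not tested.

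The replicate numbers did not pair the samples (correlations of deviations of -0.072 to 0.059), and a fit with the replicate block called 21 genes in P16 and 23 in GFP mice after hepatectomy and 0 in the other contrasts.

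Over all genes, calls ran from 5 to 214 at 0 h (27 as reported), 10 to 752 at 48 h (280) and 1 to 225 in the interaction (12). End joining genes called after hepatectomy in P16 mice (1) were 3 with DESeq2, 2 with limma-voom, no filter or only the groups compared, 3 without those 2 libraries, and 0 to 4 with each left out. Mismatch repair genes in P16 mice (4) came to 0 to 4 with each left out. Between the arms at 48 h, 1 excision repair gene was called with DESeq2, limma-voom, no filter or only the groups compared, and 0 to 1 with each library left out; 1 end joining gene and 1 other recombination gene were called with only the groups compared, that list 0 to 1 with each left out. At 0 h, 1 excision repair gene was called with DESeq2. A window from 150 bases before the start held E2F letters in 17.2% and CCAAT in 48.3% of the 29 member windows, against 1.66% and 28.6% of all promoters. Without TMM factors the summed levels were 222 and 255 CPM in P16 and GFP at 48 h, and 86.2 and 87.0 CPM at 0 h. With them the means were 210 and 207 CPM at 48 h, and 96.9 and 100 CPM at 0 h. The rise was thus larger in GFP than in P16 mice without the factors, the reverse of the order with them. Between 0 and 3 reads at 0 h limit the folds of Bard1, Exo1, Fanci, Clspn, Fancd2, Rad51ap1 and Rad54l.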
